A study of Homo sapiens with 24 samples.

Results

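The MHC class I presentation genes were followed in RNA-seq of PPC1 cells, a human prostate cancer cell line. They are the 9 protein-coding genes HLA-B, HLA-C, HLA-E, HLA-F, B2M, TAP1, TAP2, TAPBP and NLRC5, chosen by name, and they filled 10 of the 48162 rows of the count table because TAP2 is listed under 2 identifiers. Parental cells (UT) were neither irradiated nor exposed to drug. Polyploid giant cancer cells (PGCC) are the cells of plates irradiated with 8 Gy on day 2 that a 20 micron strainer held back on day 5, as the labels give it (the methods name day 3). LCL521, an inhibitor of the lysosomal enzyme acid ceramidase, was added at 5 µM for 5 hours before harvest to further parental cells (UT_LCL) and to further irradiated cells that went through the same capture (PGCC_LCL). Each of the 4 conditions had 6 libraries, numbered 1 to 6 for 6 runs of the experiment in which all conditions were harvested in parallel. All libraries come from 1 cell line. Irradiation and capture by size cannot be told apart, because parental cells had neither.

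MHC class I molecules display fragments of a cell's own proteins to cytotoxic T cells. A heavy chain (HLA-B, HLA-C and the less variable HLA-E and HLA-F) pairs with the light chain beta-2-microglobulin, the product of B2M, in the endoplasmic reticulum. Peptides cut by the proteasome enter through a transporter made of TAP1 and TAP2, and tapasin, the product of TAPBP, holds the empty molecule at that transporter until a peptide fits. NLRC5 is a transactivator that works on class I promoters, and interferons are known to raise most genes of the pathway. HLA-E presents leader peptides of other class I molecules to the CD94-NKG2A receptor of natural killer cells.

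The libraries held 14835246 to 19906601 reads assigned to genes. The 8 libraries of replicates 4 and 5 stood apart from the 16 others on the second principal component, which held 16.5% of the variance, in all 4 conditions. Member results that rest on them are therefore given with and without these replicates. For genes of other lists this is done only in part. The prostate luminal markers KLK2, KLK3, FOLH1 and TMPRSS2 had at most 3 reads in every library, while the summed level of 6 markers of simple epithelium lay between 1113 and 1459 CPM (counts per 1000000 counted reads, with library sizes scaled for composition) in parental cells and between 1466 and 2112 CPM in PGCC. RNA-seq of a bulk sample gives each gene as a share of all reads, so fewer cells with a transcript and less of it per cell cannot be told apart.

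The promoters of 7 of the 9 genes were found in the RefSeq promoter table (build GRCh38.p14). HLA-E and NLRC5 were not matched. The 250 bases before the start site are printed for 5 of them, chosen to show the motifs found (the paired motif in B2M, TAPBP, TAP2 and TAP1, the kappaB motif in HLA-B), 5′ to 3′ on the strand of the gene. Capitals mark 3 kinds of letters on either strand: a paired interferon regulatory factor motif (GAAA, any 2 bases, GAAA), a kappaB motif (GGGGATTCC) and the CCAAT box.
B2M, chr15:44711267-44711516, plus strand: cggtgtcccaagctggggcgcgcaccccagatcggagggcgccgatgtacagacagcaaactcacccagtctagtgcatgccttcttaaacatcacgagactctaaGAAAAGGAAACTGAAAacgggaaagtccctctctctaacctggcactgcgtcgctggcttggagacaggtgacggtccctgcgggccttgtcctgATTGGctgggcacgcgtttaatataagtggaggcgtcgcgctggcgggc
TAPBP, chr6:33314079-33314328, minus strand: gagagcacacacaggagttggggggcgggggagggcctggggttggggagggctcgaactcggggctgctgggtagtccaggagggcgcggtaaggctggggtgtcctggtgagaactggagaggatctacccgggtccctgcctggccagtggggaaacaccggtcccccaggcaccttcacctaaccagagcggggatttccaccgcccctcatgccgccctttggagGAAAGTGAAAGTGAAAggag
TAP2, chr6:32838740-32838989, minus strand: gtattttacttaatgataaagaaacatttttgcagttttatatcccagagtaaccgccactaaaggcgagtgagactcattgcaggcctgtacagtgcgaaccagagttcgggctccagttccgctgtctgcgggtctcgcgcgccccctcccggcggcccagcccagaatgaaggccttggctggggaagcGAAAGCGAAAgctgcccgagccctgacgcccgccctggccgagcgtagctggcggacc
TAP1, chr6:32853705-32853954, minus strand: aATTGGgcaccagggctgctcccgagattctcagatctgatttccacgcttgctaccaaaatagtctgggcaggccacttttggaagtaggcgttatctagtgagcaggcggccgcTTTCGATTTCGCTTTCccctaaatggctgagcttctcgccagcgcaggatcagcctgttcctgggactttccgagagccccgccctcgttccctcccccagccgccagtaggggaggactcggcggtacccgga
HLA-B, chr6:31357180-31357429, minus strand: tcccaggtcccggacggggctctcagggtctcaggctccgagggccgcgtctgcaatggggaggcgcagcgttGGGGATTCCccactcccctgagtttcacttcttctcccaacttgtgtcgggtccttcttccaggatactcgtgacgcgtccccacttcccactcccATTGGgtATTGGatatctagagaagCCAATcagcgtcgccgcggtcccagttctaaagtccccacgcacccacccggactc

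Of the 35093 promoter windows of this length in the table, 3.02% held the paired motif, 0.254% the kappaB motif and 32.0% the CCAAT box. The paired motif was in the windows of B2M (beginning 144 and 138 bases before the start, 2 overlapping matches), TAPBP (20 and 14 bases before it, also overlapping), TAP2 (58 bases), TAP1 (134 and 128 bases, on the opposite strand) and HLA-F (156 bases, on the opposite strand). Its letters were not in the windows of HLA-B and HLA-C. HLA-B was the only member window with the kappaB letters, 177 bases before its start. Another motif, TTCNNNGAA, known from the binding of STAT factors and present in 6.57% of all windows, was matched at a second start site of TAP1, 189 bases before it. A match describes the letters of the reference, not a bound site.

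Levels of the 9 genes lay far apart. Levels per length are given in RPKM, which is CPM divided by the listed gene length in kilobases. That length may differ from that of the transcript present, so levels of different genes compare only roughly. B2M was first in every condition, with medians of 157 and 163 in parental cells (without and with the inhibitor) and of 298 and 285 in PGCC. HLA-E followed with medians of 30.6, 26.7, 40.6 and 40.9 RPKM in the same order, and TAPBP with 18.7, 18.5, 33.3 and 33.6 RPKM. In parental cells the libraries of HLA-E (28.1 to 45.9 RPKM) and TAPBP (17.0 to 23.1 RPKM) did not overlap, whereas in PGCC they did (32.0 to 43.8 against 25.3 to 34.8 RPKM), so these neighbours were not separated by their spread there. TAP2 had medians of 0.734, 0.684, 0.840 and 0.806 RPKM, and NLRC5 had 0.0326, 0.0497, 0.257 and 0.258 RPKM. TAP1, HLA-B, HLA-C and HLA-F were at or close to 0 reads.

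**Figure D1:**
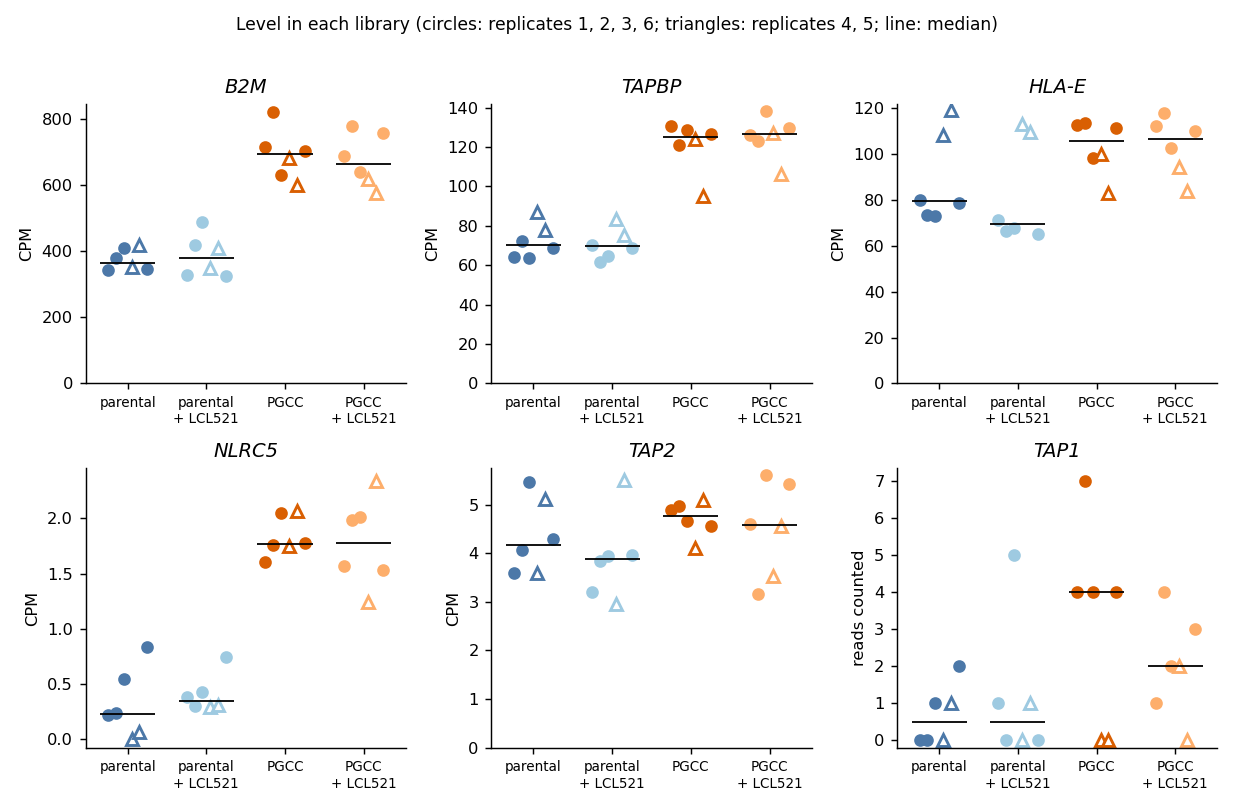
Level of 6 genes in each of the 24 libraries by condition, as CPM for B2M, TAPBP, HLA-E, NLRC5 and TAP2 and as reads counted for TAP1, each on a linear axis. Circles are replicates 1, 2, 3 and 6, triangles replicates 4 and 5, and lines medians of 6 libraries. B2M and TAPBP of every PGCC library lie above every parental library, and the parental triangles of HLA-E lie at the height of the PGCC circles.

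The first comparison asked how PGCC differ from parental cells. B2M and TAPBP rose in PGCC by less than a doubling, NLRC5 had about 6 times as many reads from a very low level, and TAP2 and HLA-E did not pass the test over all replicates. Of the 9 genes, 5 passed the filter on low counts and 3 of these had an adjusted p under 0.05 from edgeR's quasi-likelihood test, all higher in PGCC. Among all genes tested 47.4% were called, 23.1% as higher and 24.3% as lower (of the calls 48.7% were higher, and 60.2% when libraries were scaled by their totals), so calls were common in this comparison and 3 of 5 is no result about the members. Of these 3, NLRC5 was kept by the filter only through its reads in PGCC and had to differ once kept, so its values are given as a description, with no p.

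B2M (ENSG00000166710), on chromosome 15 from 45003675 to 45011075 (hg19, plus strand), had a lowest, median and highest level of 343, 365 and 420 CPM in parental cells and of 601, 693 and 821 CPM in PGCC. The conditions did not overlap. The share of all genes separated in this way is not given here, so the separation of B2M, and of TAPBP below, is only a description. From a parental mean of 375 ± 33.5 CPM to a PGCC mean of 692 ± 76.6 CPM (SD, n = 6 each), the light chain rose 1.86-fold (95% interval 1.63 to 2.12), a log2 fold change of 0.89 (SE 0.09, adjusted p = 2.4e-06, edgeR, Benjamini-Hochberg over all genes tested). It was higher in 6 of 6 same-numbered pairs. The two-sided exact permutation test over 924 divisions of the libraries, which does not use the pairs, gave p = 0.00216, the smallest that 6 against 6 allow. The log2 difference within pairs averaged 0.95 in replicates 1, 2, 3 and 6 and 0.74 in replicates 4 and 5.

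TAPBP (ENSG00000231925), on chromosome 6 from 33267471 to 33282164 (minus strand), had 63.9, 70.5 and 86.8 CPM (lowest, median, highest) in parental cells and 95.03, 125 and 131 CPM in PGCC. These ranges were also apart. Tapasin mRNA rose from 72.3 ± 8.86 CPM (SD, n = 6) to 121 ± 13.2 CPM (SD, n = 6), 1.68-fold (95% interval 1.45 to 1.96) and 0.75 on the log2 scale (SE 0.10, adjusted p = 4.3e-05, the same edgeR test). All 6 pairs were higher in PGCC. The same exact permutation test, without the pairs, gave p = 0.00216, the smallest possible. Within pairs the mean log2 difference was 0.91 in replicates 1, 2, 3 and 6, with values from 0.74 to 1.02, against 0.51 in replicate 4 and 0.28 in replicate 5. Whether these sets of replicates differ was not tested. In replicates 4 and 5 the parental level was the higher one of the 2 sets (78.1 to 86.8 CPM against 63.9 to 72.2 CPM in the other parental libraries).

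NLRC5 (ENSG00000140853), on chromosome 16 from 57023397 to 57117443 (plus strand), had 0 to 12 reads in the parental libraries, with a median of 4, and 28 to 41 reads in PGCC, with a median of 32.5. Every PGCC library had more reads than any parental library. For a gene kept through its PGCC reads, and without the share of all genes separated in this way, that is only a description. In CPM the transactivator stood at 0, 0.225 and 0.830 (lowest, median, highest) in parental cells and at 1.61, 1.77 and 2.07 in PGCC, where a floor of 3 reads corresponds to between 0.150 and 0.207 CPM. The fitted log2 fold change was 2.58 (SE 0.48). The summed reads, 198 against 30, gave a ratio of 6.19 (95% exact interval 4.202 to 9.42, which covers counting error only). The 2 parental libraries of replicates 4 and 5 held 1 of the 30 reads. Without replicates 4 and 5 the log2 fold change was 2.03, and with these replicates alone it was 5.74, so the size of the difference depended on them.

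TAP2 (ENSG00000204267), on chromosome 6 from 32789610 to 32806557 (minus strand), had 3.59, 4.17 and 5.47 CPM (lowest, median, highest) in parental cells and 4.10, 4.78 and 5.09 CPM in PGCC. The ranges overlapped, and 4 of 6 pairs were higher in PGCC. The log2 fold change of this transporter subunit was 0.12 (95% interval -0.19 to 0.43, adjusted p = 0.524, edgeR, and exact permutation p = 0.279). The interval leaves out a rise as large as that of B2M or TAPBP at their fitted values, but the missed threshold does not show equal levels.

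HLA-E (ENSG00000204592), on chromosome 6 from 30457244 to 30461982 (plus strand), was the only heavy chain among the 9 genes with a substantial level, 1116 to 2145 reads per library. It had 73.0, 79.5 and 119 CPM (lowest, median, highest) in parental cells and 83.1, 106 and 114 CPM in PGCC. The overlap came from replicates 4 and 5. Parental libraries of replicates 1, 2, 3 and 6 lay between 73.0 and 80.2 CPM and those of replicates 4 and 5 between 109 and 119 CPM, whereas PGCC libraries lay between 98.3 and 114 CPM in the first set and between 83.1 and 100.1 CPM in the second. Over all replicates the log2 fold change was 0.22 (SE 0.14, 95% interval -0.07 to 0.52, adjusted p = 0.198, edgeR, and exact permutation p = 0.149).

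Split by replicate set, the differences of HLA-E lay on opposite sides of 0. The log2 difference between PGCC and parental cells of the same number was 0.43 to 0.63 in replicates 1, 2, 3 and 6, -0.12 in replicate 4 and -0.52 in replicate 5. Leaving out replicates 4 and 5, the log2 fold change was 0.53 (SE 0.08, adjusted p = 7.8e-05, edgeR), and in replicates 4 and 5 alone it was -0.32 (adjusted p = 0.0535). Leaving out replicate 5 alone gave 0.39 (adjusted p = 0.0159), and leaving out any other single replicate gave no call. In the fit without replicates 4 and 5, 27.7% of the genes tested were called as higher, and HLA-E, B2M and TAPBP were among them.

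**Figure D2:**
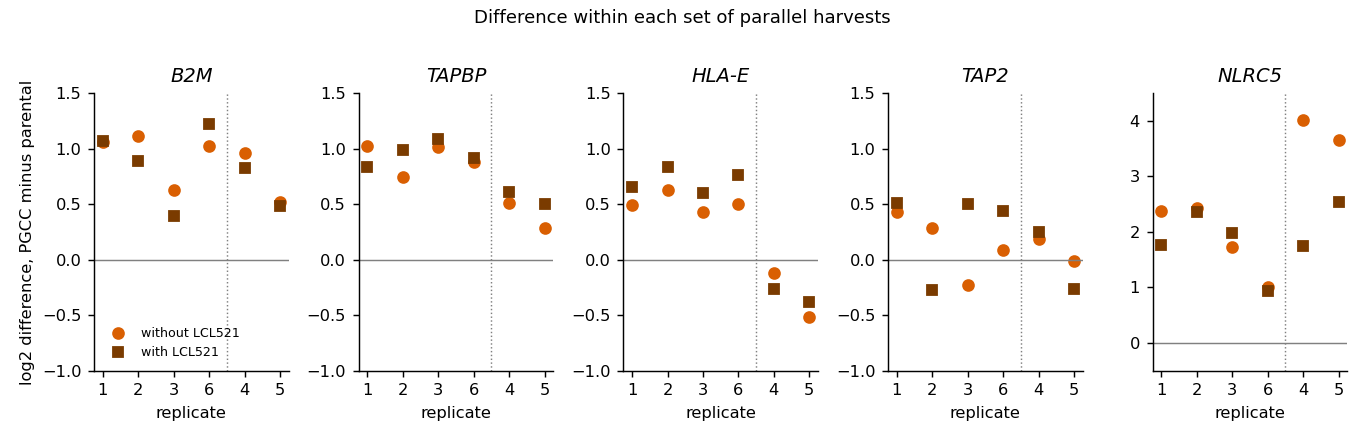
Log2 difference in level between PGCC and parental cells harvested in the same run, for 5 genes, by replicate number, with circles for cells without and squares for cells with LCL521. The axis of NLRC5 is wider. HLA-E lies above 0 in replicates 1, 2, 3 and 6 and below 0 in replicates 4 and 5 with either treatment, while B2M, TAPBP and NLRC5 lie above 0 throughout.

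The ratio of levels per length gave the same contrast without reference to other genes. B2M stood at 3.61 to 6.26 times the RPKM of HLA-E in parental cells and at 7.05 to 8.08 times in PGCC, and the ranges did not overlap. In parental cells the ratio was 4.78 to 6.26 in replicates 1, 2, 3 and 6 and 3.61 to 3.93 in replicates 4 and 5, whereas in PGCC the sets lay at 7.05 to 8.05 and 7.62 to 8.08. TAPBP stood at 0.453 to 0.680 times the RPKM of HLA-E in parental cells and at 0.734 to 0.906 times in PGCC. B2M over TAPBP, by contrast, overlapped between the conditions, with 6.53 to 10.3 in parental cells and 7.90 to 10.97 in PGCC. With LCL521 the ranges overlapped for B2M over HLA-E (3.43 to 8.05 in parental cells, 6.85 to 7.67 in PGCC) and for TAPBP over HLA-E (0.476 to 0.734 and 0.720 to 0.931). These ratios were formed after the levels were seen and carry no test.

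The other heavy chains and TAP1 were barely counted. HLA-B (ENSG00000234745, chromosome 6 from 31321649 to 31324965) had 0 to 3 reads per library and 20 reads in all 24 libraries. HLA-C (ENSG00000204525, chromosome 6 from 31236526 to 31239907) had 0 to 2 reads and 9 in all, and HLA-F (ENSG00000204642, chromosome 6 from 29690552 to 29706305) had 0 reads in 24 of 24 libraries, which allows up to 3 reads per library. These levels are at or under the floor, so no fold change is given. TAP1 (ENSG00000168394, chromosome 6 from 32812986 to 32821755) had 0 to 2 reads in parental libraries and 0 to 7 in PGCC. Its 4 PGCC libraries of replicates 1, 2, 3 and 6 held all 19 PGCC reads, and those of replicates 4 and 5 held 0. Against the 4 parental reads, the ratio of summed reads was 4.46 (95% exact interval 1.48 to 18.01, counting error only). TAP1 was removed by the low-count filter, and with every gene of at least 1 read kept its log2 fold change was 1.99 (SE 0.91, adjusted p = 0.117, edgeR).

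Counting limits apply to these rows. Heavy-chain genes and their pseudogenes are near-identical copies, and how reads that align to several of them were treated is not given in the sources used here. The 9 class I pseudogene rows together held 2 to 29 reads per library. PSMB9, an immunoproteasome subunit gene with 0 reads in every library, has a row on the other strand that spans 100% of TAP1, and XXbac-BPG246D15.8 covers 14.7% of it. The second TAP2 row (ENSG00000250264, chromosome 6 from 32781544 to 32806599) had 0 reads throughout, spans all of the first and also overlaps HLA-DOB. HLA-F is overlapped by HLA-F-AS1 (75.7% of its span), HCG4P11 and RPL23AP1, HLA-B by XXbac-BPG248L24.12 (16.3%), and NLRC5 by RP11-322D14.1 and RP11-322D14.2 (6.37% at most). No row overlaps B2M, TAPBP, HLA-E or HLA-C. A gene without transcripts and one whose reads were set aside as shared cannot be told apart from this table.

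**Figure D3:**
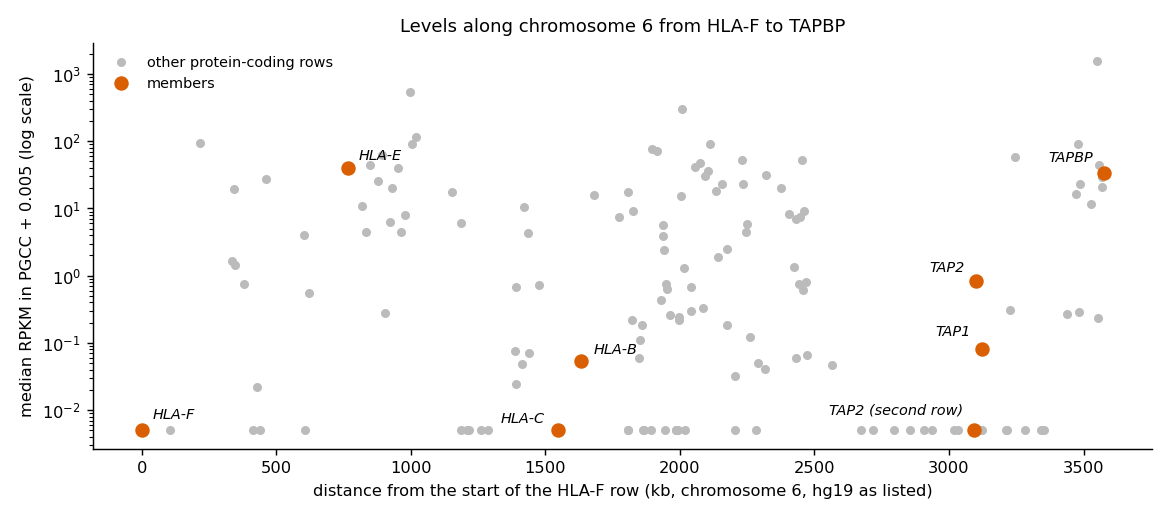
Median RPKM of 6 PGCC libraries plus 0.005, on a log scale, for the 149 protein-coding rows on chromosome 6 between HLA-F and TAPBP, against the distance in kb from the start of the HLA-F row (hg19). Members are labelled. HLA-E and TAPBP lie among the well-counted rows, HLA-F, HLA-C and the second TAP2 row lie at 0, and TAP2, TAP1 and HLA-B lie between.

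Low counts were not a feature of the whole stretch. Of the 149 protein-coding rows between the start of HLA-F and the end of TAPBP, 40 (26.8%) had at most 3 reads in every library, against 27.1% of the 20312 protein-coding rows of the table. Among the neighbours of TAP1 and TAP2, PSMB8 had at most 1 read and HLA-DOB at most 2 reads in any library.

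The same comparison was made between the conditions with LCL521, which share no library with the first. B2M (log2 fold change 0.83, SE 0.12, adjusted p = 4.2e-05, edgeR) and TAPBP (0.85, SE 0.09, adjusted p = 3.6e-06) were again higher in PGCC, in 6 of 6 pairs each. The conditions did not overlap for either gene (exact permutation p = 0.00216 each, without the pairs). Of all genes tested 48.9% were called, 25% as higher and 23.9% as lower, so calls were common here too. The share of all genes without overlap is not given here either. B2M had 324, 380 and 488 CPM (lowest, median, highest) in parental cells with LCL521 and 575, 665 and 778 CPM in PGCC with LCL521. TAPBP had 61.9, 69.7 and 83.3 CPM against 106, 126 and 138 CPM. NLRC5 had 5 to 13 reads against 21 to 39 reads, a ratio of summed reads of 4.35 (95% exact interval 3.09 to 6.26, counting error only). Its fitted log2 fold change was 2.13 (SE 0.28), given with no p because NLRC5 was again kept by the filter through PGCC. TAP2 had 2.96 to 5.51 CPM against 3.16 to 5.62 CPM, a log2 fold change of 0.23 (95% interval -0.19 to 0.64, adjusted p = 0.348, edgeR). TAP1 had 7 reads in all against 12, a ratio of 1.64 with an exact interval of 0.594 to 4.90.

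HLA-E showed the same division with LCL521. It had 65.0, 69.5 and 113 CPM (lowest, median, highest) in parental cells and 83.9, 106 and 118 CPM in PGCC. Parental libraries lay at 65.0 to 71.4 CPM in replicates 1, 2, 3 and 6 and at 109.5 to 113 CPM in replicates 4 and 5. The log2 fold change over all replicates was 0.36 (95% interval 0.02 to 0.69, adjusted p = 0.0730, edgeR, and exact permutation p = 0.0584). It was 0.75 without replicates 4 and 5 (adjusted p = 3.6e-06, edgeR, where 27.9% of all genes tested were called as higher) and -0.32 in these replicates alone (adjusted p = 0.0174). Leaving out replicate 4 or replicate 5 alone also made HLA-E pass as higher, at 0.50 and 0.51.

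**Figure D4:**
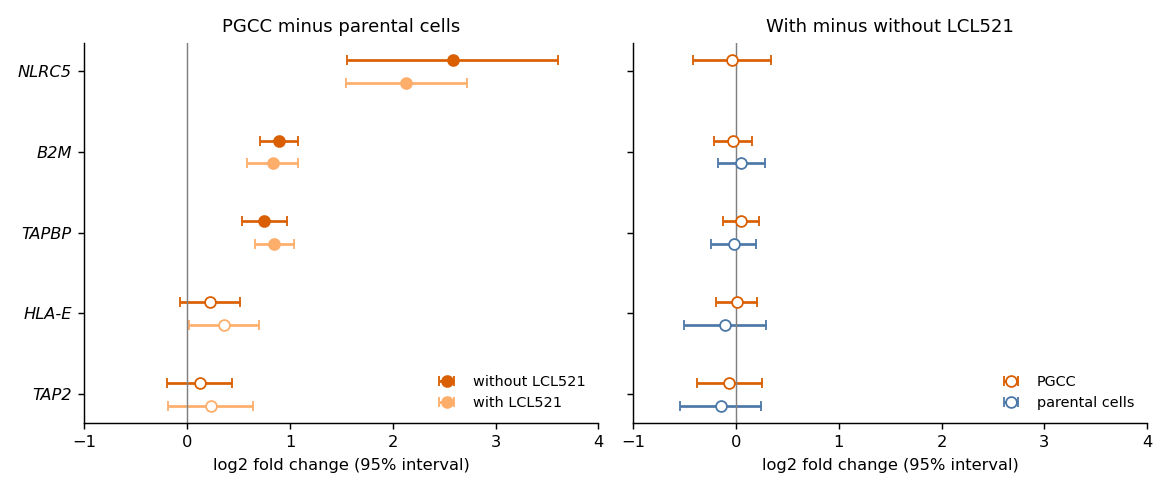
Log2 fold changes with 95% intervals from edgeR for the 5 genes that passed the filter on low counts, for PGCC minus parental cells (left) and for cells with minus cells without LCL521 (right). Filled points have an adjusted p under 0.05. B2M and TAPBP are filled and above 0 on the left. NLRC5 is drawn filled there as well, but the filter kept it through its PGCC reads, so its fill is no test result. Every point on the right is open with an interval that includes 0. NLRC5 has no value for parental cells on the right because it was removed by the filter.

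LCL521 was compared next within each population. No member passed the test in parental cells (0 of 4 tested) or in PGCC (0 of 5 tested) with edgeR, DESeq2 or limma-voom, and none of them had an unadjusted p under 0.05 from any of the 3 tools. Of all genes, 0% were called in parental cells and 0.00707% in PGCC, where 71 and 218 genes had an unadjusted p under 0.05 with edgeR. With the replicate number as a block, 0.866% and 1.65% of all genes were called, still without a member (HLA-E in parental cells came nearest, with a log2 fold change of -0.12 and an adjusted p of 0.273). In that blocked edgeR fit HLA-E was the 1 of 4 members with an unadjusted p under 0.05, as were 1648 of 13277 genes. In PGCC 0 of 5 members had one with the block. In PGCC the changes without the block were -0.03 for B2M (95% interval -0.22 to 0.16), 0.05 for TAPBP (-0.13 to 0.23), 0.01 for HLA-E (-0.19 to 0.21), -0.07 for TAP2 (-0.38 to 0.25) and -0.04 for NLRC5 (-0.42 to 0.34). In parental cells they were 0.05 for B2M (-0.18 to 0.28), -0.02 for TAPBP (-0.24 to 0.19), -0.11 for HLA-E (-0.50 to 0.29) and -0.15 for TAP2 (-0.54 to 0.24). NLRC5 had 0 to 12 reads without and 5 to 13 reads with LCL521 in parental cells. Changes of B2M or TAPBP of the size seen between PGCC and parental cells lie outside these intervals.

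Whether LCL521 acted differently in the 2 populations was tested as an interaction over 24 libraries. Of all genes 0% were called, and of the 5 members tested 0 had an adjusted p or an unadjusted p under 0.05 with edgeR, DESeq2 or limma-voom. The drug effect on PGCC less its effect on parental cells came to 0.12 for HLA-E (95% interval -0.32 to 0.56), -0.08 for B2M (-0.37 to 0.22), 0.08 for TAPBP (-0.19 to 0.35), 0.09 for TAP2 (-0.39 to 0.56) and -0.47 for NLRC5 (-1.64 to 0.71). The interval of NLRC5 is wide at its depth.

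Other genes of the pathway were described by lists chosen for their roles, each set beside the median of all genes tested between PGCC and parental cells, -0.03. Of 9 genes for peptide loading and trimming, 8 were tested, 1 rose and 1 fell, with a median log2 fold change of -0.0022. ERAP2, an aminopeptidase that trims peptides in the endoplasmic reticulum, rose from 6.90 ± 2.10 CPM to 22.5 ± 3.79 CPM (SD, n = 6), 1.71 on the log2 scale (SE 0.20, adjusted p = 1.0e-05, edgeR). CANX, the chaperone calnexin, fell by 0.29 (adjusted p = 0.0198). Without replicates 4 and 5, 4 rose (ERAP2, ERAP1, HSPA5 and CALR) and 1 fell (LNPEP), and CANX no longer passed (adjusted p = 0.133). With the replicate block 2 rose and 2 fell, and with libraries scaled by their totals 2 rose and 0 fell. Of 5 genes of the immunoproteasome and its PA28 activator, 3 were tested and 2 rose, PSME2 by 0.70 (SE 0.07, adjusted p = 3.3e-06) and PSME1 by 0.28 (adjusted p = 0.00439), both PA28 subunits. The inducible catalytic subunits PSMB8 and PSMB9 had at most 1 read in any library. Of 4 further proteasome genes, 3 fell, the PA28 gamma gene PSME3 (-0.33) and the constitutive subunit genes PSMB6 (-0.24) and PSMB7 (-0.21), but with libraries scaled by their totals 0 of 4 were called (median -0.13, against -0.23).

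The proteins that hold NLRC5 and CIITA at MHC promoters belong to the RFX, NF-Y and CREB families. In a list of these genes and CIITA, 9 in all, 8 were tested (CIITA was not), 0 rose and 4 fell, with a median of -0.24 and the largest falls in NFYA (-0.39), CREB1 (-0.35) and NFYC (-0.27). Without replicates 4 and 5 the calls were 2 rises (RFX5 and RFXAP) and 2 falls, and with libraries scaled by their totals 0 rises and 1 fall (median -0.15). Among 13 IRF, STAT and NF-kappaB genes, 11 were tested and 6 rose, with a median of 0.62 and the largest rises in NFKB2 (1.16), IRF1 (1.11) and RELB (1.06). IRF1, which binds interferon-responsive promoters, went from 13.7 ± 5.87 CPM to 29.2 ± 12.8 CPM (SD, n = 6, adjusted p = 0.0210, edgeR).

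Of 28 interferon-stimulated genes, 20 were tested and 18 rose, with a median of 1.79, led by OAS2 (3.08, kept by the filter through PGCC), OAS3 (3.04) and GBP1 (2.86). Among the parental libraries alone, with and without LCL521, only 18 genes of the list passed the filter. OAS2 was therefore not the only gene kept through PGCC, and the count of rises and the median are only a description. IFI35 (0.39, adjusted p = 0.123) and IFITM2 (-0.17, adjusted p = 0.147) did not pass. Without replicates 4 and 5, 21 genes of this list were tested, 19 rose and 1 fell, with a median of 1.75. The list of 15 genes for interferons, their receptors and kinases had 9 rows tested and 1 rise, that of the interferon lambda receptor gene IFNLR1 (0.84, adjusted p = 0.0294). Without replicates 4 and 5 IFNLR1 was at 0.27 (adjusted p = 0.446), and JAK1 and IFNGR2 passed as higher. With the replicate block IFNLR1 did not pass (adjusted p = 0.0577) and TYK2 was the 1 rise (0.35, adjusted p = 0.00615), and with libraries scaled by their totals 3 rose. Without the block the best-counted genes of that list, the kinase genes TYK2 (0.33, adjusted p = 0.0688) and JAK1 (0.21, adjusted p = 0.337), did not pass. IFNB1 had at most 3 reads and IFNG 0 reads in any library.

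**Figure D5:**
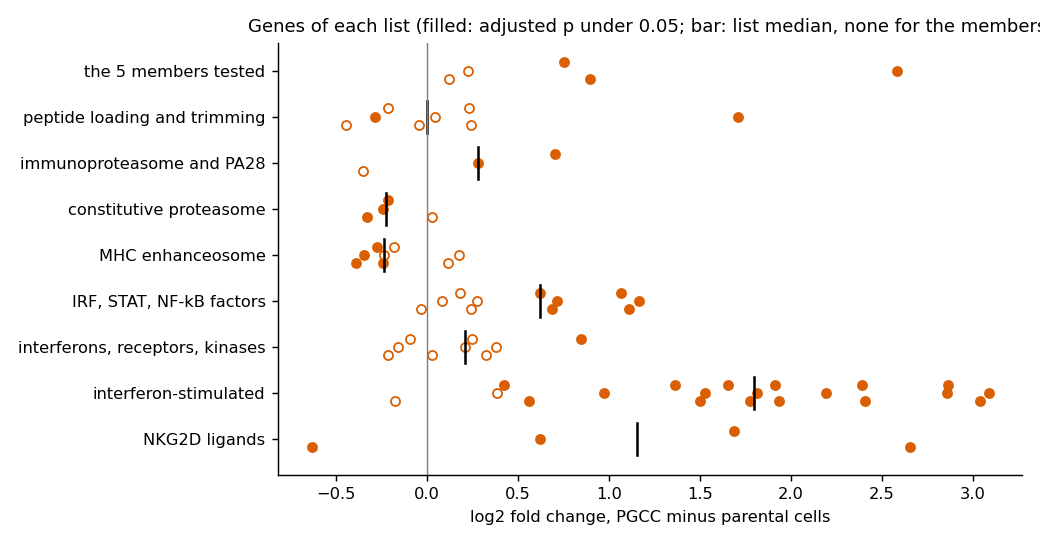
Log2 fold changes between PGCC and parental cells for the tested genes of 9 groups, the members first, from edgeR, 1 point per gene and with 3 heights per group only to separate points. Filled points have an adjusted p under 0.05, and bars are list medians, with none drawn for the members. NLRC5, OAS2 and at least 1 further interferon-stimulated gene were kept by the filter through PGCC, so their fill is no test result. The interferon-stimulated genes are mostly filled and above 0, with a median of 1.79, while the enhanceosome and constitutive proteasome genes have medians of -0.24 and -0.23.

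Ligands of other lymphocyte receptors were set beside the members. Of 8 ligands of NKG2D, an activating receptor of natural killer cells, 4 were tested, and RAET1E (2.65, SE 0.27, adjusted p = 2.7e-06, edgeR), MICB (1.69, adjusted p = 1.1e-05) and MICA (0.62, adjusted p = 0.0286) rose, while ULBP3 fell by 0.63 (adjusted p = 0.0311), a call lost with libraries scaled by their totals. MR1, a class I-like gene that presents vitamin metabolites, rose by 0.98 (adjusted p = 0.0287), and HFE, the next in level of 5 such genes, had at most 16 reads. Of 5 inhibitory surface ligands, 2 were tested and 0 passed with edgeR without the block, CD47 at 0.25 (adjusted p = 0.114) and CD276 at 0.12 (adjusted p = 0.596). With the replicate block CD47 passed as higher (0.25, adjusted p = 0.0369), with libraries scaled by their totals 1 of 2 passed, and without replicates 4 and 5 CD47 and CD274 passed, with 3 tested. None of 12 class II genes was tested, and HLA-DMA and CD74, the best counted, had at most 15 and 7 reads.

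Between the conditions with LCL521, where the median of all genes was -0.0064, the lists were counted again. Of the interferon-stimulated genes 19 of 22 tested rose (median 1.81), and without replicates 4 and 5, 19 rose and 1 fell. Only 18 genes of this list passed the filter among the parental libraries alone, so some of the 22 were kept through PGCC. Those had to differ once kept, so these counts and the median are only a description. Of the regulators 6 of 11 rose, and of the enhanceosome genes 3 of 8 fell (5 fell and 1 rose with the replicate block). Of the peptide loading and trimming genes 3 of 8 rose and 1 fell. MR1 passed there only with the block (adjusted p = 0.0294, against 0.161) or without replicates 4 and 5, and of the NKG2D ligands 3 of 4 rose and 0 fell. The inhibitory ligands CD47 and CD276 passed as higher with the block (2 of 2, against 0 of 2), of the interferon and receptor genes 2 rose and 1 fell with it (against 1 rise), and of the constitutive proteasome genes 3 of 4 fell (0 of 4 with libraries scaled by their totals).

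Markers of other cells were read beside these counts. The lymphocyte markers CD3D, CD3E, CD2 and MS4A1 had at most 3 reads in every library, but the summed level of the list of leukocyte markers was 0.754 to 3.20 CPM in parental cells and 3.73 to 5.35 CPM in PGCC, mostly PTPRC, whose log2 fold change was 1.39 (adjusted p = 0.0164, edgeR). The sum of 6 fibroblast markers was 52.4 to 133 CPM against 83.2 to 209 CPM, that of 3 endothelial markers 0.782 to 4.83 CPM against 2.48 to 5.51 CPM. Their part in the results above was not tested.

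The genes with a pattern most like that of the members were sought among 10153 other protein-coding genes whose average log2 CPM reached 2. Likeness was the root mean square difference, over 24 libraries, between a gene's log2 CPM and the mean of the 5 tested members, each centred on its own mean. TIMP2 (0.136), an inhibitor of metalloproteinases, HTRA1 (0.143), a secreted serine protease, TMEM106C (0.144), GUSB (0.150), the lysosomal beta-glucuronidase, and HYLS1 (0.150), a centriole protein, came nearest, where the median gene was at 0.555. The members themselves lay at 0.163 (B2M), 0.192 (TAPBP), 0.389 (HLA-E), 0.405 (TAP2) and 0.864 (NLRC5) from their mean. NLRC5 had the widest centred values (-1.39 in parental cells, 1.14 in PGCC) and so the largest share in that mean. PSME2 was 10th in the same order.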

How the data were processed

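RNA of PPC1 cells was sequenced in 4 conditions of 6 libraries. The authors deposited read counts per gene, without normalization. Per the labels and methods, CASAVA made the reads, STAR aligned them to hg19 and HTSeq counted them. The annotation release, the strand setting and the treatment of shared reads are not given in the sources used here, so counts of overlapping genes and of copies are uncertain. All 24 sample columns were used. Libraries of one condition differed by more than sampling noise (chi-square per degree of freedom between 4.69 and 110 in 60 pairs).

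The software was R 4.3.3, edgeR 4.0.16, DESeq2 1.42.0 and limma 3.58.1. Low-count genes were removed by filterByExpr (minimum count 10, minimum total 15), libraries were scaled by TMM, and the 12 libraries of each comparison were fitted with the quasi-likelihood test, without a block. The interaction used 24 libraries. P-values were adjusted over all genes tested by Benjamini-Hochberg, with a threshold of 0.05. The steps were also run on simulated counts, with known changes in genes above a minimum level and the same dispersion for all genes. That run does not cover members with few reads, and its outcome is not given here. A prior count of 2 was used for log2 CPM. Single values used two-sided exact permutation tests. Intervals are at 95%, and those of reads cover counting error only. The sources describe 6 runs with parallel harvests. Same-numbered libraries deviated together from their condition means (correlations across genes from 0.171 to 0.813, all above 0.1 in the 4 comparisons), so the numbers were taken as pairs, and fits with the replicate block were run for all comparisons.

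The members and lists were chosen with earlier results of these data known. Named genes were the 9 members, up to 3 largest rises and 3 largest falls among the called genes of each other list (the 2 highest in level where under 2 were called), the 5 genes most like the members, and rows that overlap a member. A few further list genes were named after their values were seen. Alternatives were DESeq2, limma-voom, RLE factors, library totals, 2 other filters, a single fit of 24 libraries, the replicate block, each replicate left out, and replicates 4 and 5 left out or taken alone. Some genes of the lists are not reported here.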

Additional observations from a re-analysis of the deposited data

Results flagged for a closer look

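In 3 of 23 sets of 6 libraries (1 gene in 1 condition), the highest or lowest library lay far from the other 5 by Dixon's criterion. Chance alone flags about 1 in 20 groups. TAPBP in PGCC was lowest in replicate 5, at 95.03 CPM, where the others lay between 121 and 131 CPM. TAP1 in parental cells with LCL521 was highest in replicate 3, at 0.303 CPM (5 reads), where the others lay between 0 and 0.0629 CPM. NLRC5 in parental cells with LCL521 was highest in replicate 6, at 0.747 CPM, where the others lay between 0.290 and 0.425 CPM. The last 2 rest on few reads. Without replicate 5, TAPBP stayed higher in PGCC, within the range of 0.69 to 0.84 that leaving out single replicates gave.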

How the results depend on the processing

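All 17 alternatives kept B2M and TAPBP higher in PGCC and past the threshold, with log2 fold changes of 0.74 to 0.99 and 0.41 to 0.93 without LCL521 and of 0.66 to 0.93 and 0.56 to 0.99 with it. NLRC5 ranged from 2.03 to 5.74 and from 1.95 to 2.56, which is no sign of stability, since its PGCC reads carried it past the filter and it was not tested where at least 10 reads in every library were required. With the replicate block B2M and TAPBP had 0.89 and 0.75, and the block changed no call of a member, though it changed calls of list genes, given beside them. HLA-E passed as higher only in some settings. Without LCL521 these were the fits without replicates 4 and 5 (0.53, also with the block) and without replicate 5. With LCL521 they were limma-voom (0.39), library totals (0.41), the fits without replicate 4, without replicate 5 and without both (0.75, also with the block). In replicates 4 and 5 alone HLA-E with LCL521 turned to -0.32. The cause was not tested. TAP2 passed in no setting. Scaling by library totals changed the higher share of called genes between parental cells and PGCC from 48.7% to 60.2% and the median of all genes from -0.03 to 0.07.

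No member passed for LCL521 or the interaction in any setting, and several small values changed sign. The number of genes called over the whole table moved for LCL521. In parental cells it went from 0 to 115 with the block and to 3 with the block and without replicates 4 and 5. In PGCC it went from 1 to 6 with DESeq2, to 234 with the block, to 129 with the block and without replicates 4 and 5, and to 0 with limma-voom, with all 24 libraries in one fit and with replicates 4 and 5 left out or alone. Leaving out single replicates gave 0 to 1. Of 816 counts of list genes, 713 stayed within 1.5 times their value and 103 did not. Depth limits HLA-B, HLA-C, HLA-F and TAP1, where a floor of 3 reads is above or near nearly every value.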
